A study of Mus musculus with 2 samples.

Results

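Gad1, Gad2, Slc32a1 and Slc6a11, 4 of the 32285 genes counted in each library, encode the enzymes that make the inhibitory transmitter GABA, the transporter that loads it into vesicles and a transporter that takes it back up. They were chosen by symbol as a functional group and not by their values, and all 4 were found in both count tables with matching Ensembl identifiers. Slide-tags labels the nuclei of a fresh-frozen tissue section with spatial barcodes before droplet snRNA-seq, and only the gene counts per nucleus were used here. The adult library came from a 20 µm coronal section of the hippocampus of a C57BL/6J male aged 56 days, which also held thalamic and cortical nuclei, and the E14 library came from the brain in a sagittal section of a purchased C57BL/6J embryo at embryonic day 14. With 1 library per tissue there was no replicate and no test. Each interval below is an exact 95% interval that covers counting error only, and nuclei of a library are not replicates.

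After filtering, 1609 adult nuclei held 15346746 UMIs with a median of 6607 per nucleus, and 9036 E14 nuclei held 58923882 UMIs with a median of 4204. The libraries shared 1 cell barcode. Nuclei were put into classes from UMIs of marker genes, none of them a member, so each class is written as X-like. The markers did not place 226 adult and 4342 E14 nuclei. A further 2 adult fibroblast, 538 E14 Cajal-Retzius and 64 E14 erythroid nuclei were placed but got no class name, because a name needed at least 20 nuclei with at least 50% of them in 2 clusters. The 228 adult and 4944 E14 nuclei without a class name are called unassigned below. Levels are counts per 1000000 UMIs of the class (CPM), and shares are shares of nuclei with at least 1 UMI. The adult unassigned nuclei were shallow, with a median of 902 UMIs.

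As background, glutamate decarboxylase removes a carboxyl group from glutamate to give GABA, and mammals have 2 genes for it. The Gad1 product is spread through the cytosol and makes most of the GABA of the brain, whereas the Gad2 product is attached to synaptic vesicles and is more dependent on its pyridoxal phosphate cofactor. The Slc32a1 product fills synaptic vesicles with GABA or glycine. The Slc6a11 product lies in the plasma membrane, chiefly of astrocytes, and removes GABA from the extracellular space. In the forebrain most GABAergic neurons arise in the ganglionic eminences under Dlx homeodomain factors, and those of the midbrain and thalamic border arise under Gata and Tal factors. The granule neurons of the dentate gyrus are glutamatergic.

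The members lie on chromosomes 2 and 6 of GRCm38, all on the plus strand. Gad2 spans chr2:22622205-22693874 in 16 exon blocks, Gad1 chr2:70553072-70602014 in 21, Slc32a1 chr2:158610767-158615748 in 2, and Slc6a11 chr6:114131241-114249952 in 14 (GENCODE vM21). The spans run from 4.98 kb for Slc32a1 to 119 kb for Slc6a11, and the counts include intronic reads, so levels of different genes were ordered only per kb. The Gad1 share of Gad1 plus Gad2 UMIs has no length correction and was compared between groups of nuclei, not read as an order of the genes. The 250 bases before the RefSeq start of each member are shown because Gad1, Gad2 and Slc32a1 were high in the same classes while Slc6a11 was not. They are the plus-strand sequences of chr2:70561879-70562128 (Gad1), chr2:22622077-22622326 (Gad2), chr2:158610508-158610757 (Slc32a1) and chr6:114130991-114131240 (Slc6a11) in GRCm38.p6, written 5′ to 3′ with each CG dinucleotide in capitals.
Gad1: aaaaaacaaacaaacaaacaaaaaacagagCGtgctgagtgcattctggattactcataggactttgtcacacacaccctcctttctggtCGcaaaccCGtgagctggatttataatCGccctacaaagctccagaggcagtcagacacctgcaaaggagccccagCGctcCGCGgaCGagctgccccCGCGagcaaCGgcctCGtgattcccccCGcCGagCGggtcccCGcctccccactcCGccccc
Gad2: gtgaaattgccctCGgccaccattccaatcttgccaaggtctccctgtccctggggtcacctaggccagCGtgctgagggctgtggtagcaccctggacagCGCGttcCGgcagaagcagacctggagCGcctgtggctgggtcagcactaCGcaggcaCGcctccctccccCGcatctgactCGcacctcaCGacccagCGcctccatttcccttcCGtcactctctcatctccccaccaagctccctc
Slc32a1: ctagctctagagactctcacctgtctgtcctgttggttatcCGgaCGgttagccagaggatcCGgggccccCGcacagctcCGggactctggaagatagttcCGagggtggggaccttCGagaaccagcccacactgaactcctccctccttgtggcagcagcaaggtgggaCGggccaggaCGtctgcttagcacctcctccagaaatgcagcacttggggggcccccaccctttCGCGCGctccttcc
Slc6a11: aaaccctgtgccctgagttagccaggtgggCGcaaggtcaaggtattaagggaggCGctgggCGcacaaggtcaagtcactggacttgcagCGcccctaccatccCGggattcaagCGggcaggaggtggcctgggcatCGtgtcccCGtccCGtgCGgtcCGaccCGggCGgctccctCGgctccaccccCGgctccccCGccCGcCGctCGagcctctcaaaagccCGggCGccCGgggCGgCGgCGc

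These windows held 17 CG dinucleotides in Gad1, 13 in Gad2, 12 in Slc32a1 and 25 in Slc6a11, against a median of 6.0 over the 32851 RefSeq promoters of the same length. The GC content ran from 58.0% in Gad1 to 71.2% in Slc6a11. The letters TAATTA, the core bound by Dlx and other homeodomain proteins and the same on both strands, occurred in none of the 4 windows and in 4.84% of all promoters. The RefSeq starts of Gad1 and Gad2 lie inside the longer GENCODE gene spans, so the Gad1 window and part of the Gad2 window lie within the annotated genes.

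In the adult library, Gad1, Gad2 and Slc32a1 were each highest in the 37 inhibitory-like nuclei, which made up 2.30% of the nuclei. Gad1 was at 563 CPM there (502 to 631, 303 UMIs), Gad2 at 681 (613 to 754, 366 UMIs) and Slc32a1 at 113 (86.8 to 146, 61 UMIs). These nuclei held 72.3% of the Gad2 UMIs and 74.4% of the Slc32a1 UMIs of the library, but only 40.9% of the Gad1 UMIs. A further 40.6% of the Gad1 UMIs lay in dentate granule-like nuclei. The class was named from Dlx6os1, Lhx6, Adarb2 and 7 other markers, all 10 of which were detected, and 97.3% of its nuclei lay in 2 clusters made without the members.

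Per kb of gene span, the inhibitory-like level was 11.5 CPM for Gad1, 9.50 for Gad2, 22.8 for Slc32a1 and 0.188 for Slc6a11. Per kb of exon, the order changed to 116 for Gad2, 73.8 for Gad1, 40.6 for Slc32a1 and 4.42 for Slc6a11. The order of the 3 neuronal genes therefore depended on the length used, and Slc6a11 was lowest on both scales.

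Single inhibitory-like nuclei carried many UMIs of both decarboxylase genes. The Gad1 count per nucleus ran from 0 to 37 with a median of 6, and the Gad2 count from 0 to 36 with a median of 8. Slc32a1 ran from 0 to 7 with a median of 1. A UMI of Gad1 or Gad2 was found in 36 of 37 nuclei, of both in 33, and of Gad1, Gad2 and Slc32a1 in 26. The remaining nucleus had 780 UMIs in all and was placed in the class by 30 Adarb2 UMIs and 1 Dlx6os1 UMI. The 2 nuclei with Gad2 and no Gad1 held 8 and 5 Gad2 UMIs.

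**Figure D1:**
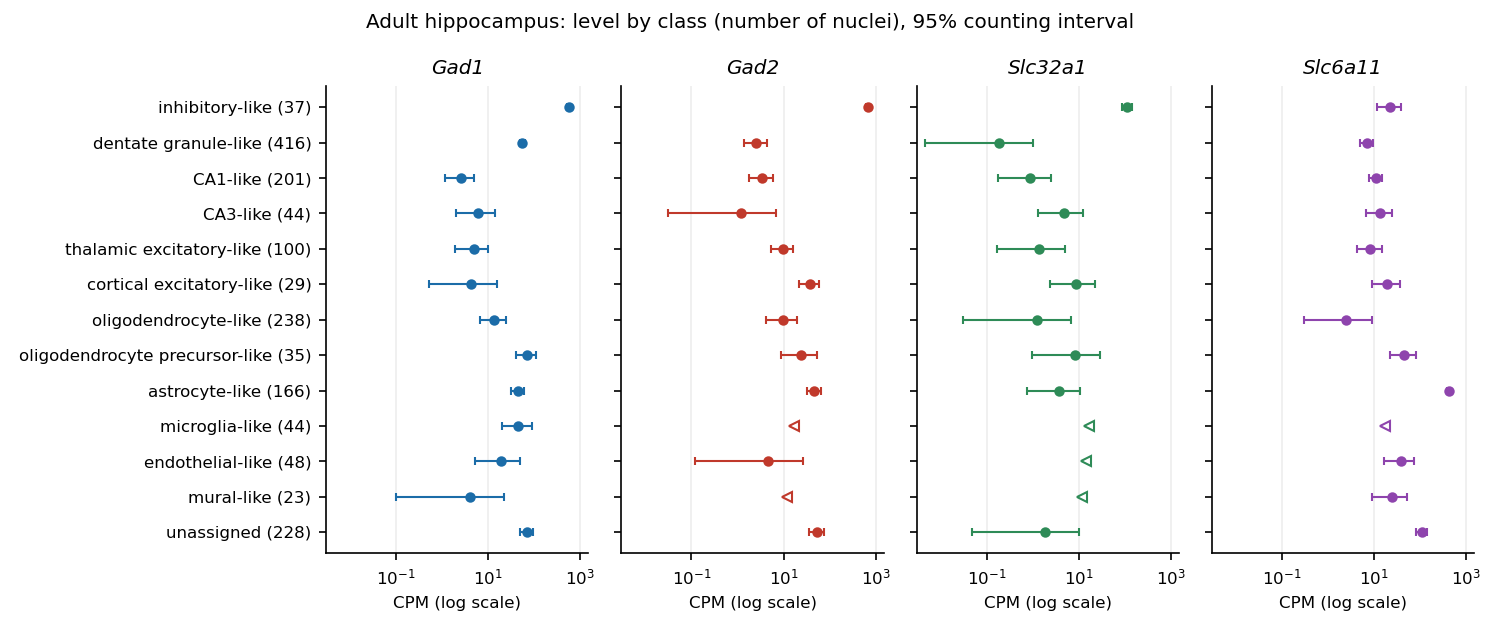
Each panel shows 1 member, with the level in CPM on a log axis for each class of the adult library (number of nuclei in brackets). Points are summed levels, bars are 95% counting intervals, and an open triangle marks the limit of 3 counts where a class had no UMI. Gad2 and Slc32a1 peaked in inhibitory-like nuclei and Slc6a11 in astrocyte-like nuclei, while the Gad1 panel also has a narrow interval at 54.8 in dentate granule-like nuclei.

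Inhibitory-like nuclei were also divided by the interneuron marker detected. Gad1 made up 45.3% of the Gad1 plus Gad2 UMIs over the class (41.5% to 49.2%, 669 UMIs). In the 7 nuclei with a UMI of the neuropeptide gene Sst, none of which had an Adarb2 UMI, the Gad1 share was 30.9% (19.1% to 44.8%). In the 4 nuclei with a UMI of Pvalb, a marker of fast-spiking basket cells, it was 54.1% (46.3% to 61.7%). Of these 4, however, 2 held 1 Pvalb UMI beside 21 and 690 UMIs of Adarb2, a marker of interneurons from the caudal ganglionic eminence. The other 2, with 10 and 7 Pvalb UMIs and no Adarb2 UMI, had a Gad1 share of 66.7% (54.6% to 77.3%). Neither Pvalb interval overlaps that of the Sst nuclei, but the intervals treat UMIs and not nuclei as the unit, and each group holds few nuclei. The Gad1 and Gad2 counts were 22 and 16, and 26 and 8, in the Pvalb nuclei without Adarb2, and 37 and 36, and 8 and 19, in those with it. In the 7 Sst nuclei they were 6 and 11, 5 and 5, 3 and 6, 0 and 8, 1 and 5, 1 and 2, and 1 and 1. Gad1 counts were thus 6 or lower in every Sst nucleus and 8 or higher in every Pvalb nucleus, but these counts are not matched for depth. The 4 Pvalb nuclei held 19369 to 35868 UMIs each, and the 7 Sst nuclei 856 to 22827.

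The Sst nuclei also had the lower Gad1 level. Gad1 was at 176 CPM in them (102 to 281) and Gad2 at 392.4 (278 to 538), against 788 (636 to 965) and 669 (530 to 834) in the 4 Pvalb nuclei. In the 2 Pvalb nuclei without Adarb2 they were at 715 (527 to 948) and 357 (229 to 532). The Gad1 intervals thus lie apart from that of the Sst nuclei with either choice, and the Gad2 intervals overlap. Slc32a1 was at 124 CPM in the Sst and 110 in the 4 Pvalb nuclei, with intervals that overlap. The 25 nuclei with an Adarb2 UMI had a Gad1 share of 44.2% and the 8 with an Lhx6 UMI 50.5% (43.4% to 57.6%). Lhx6 marks interneurons from the medial eminence, but 5 of these 8 nuclei also carried Adarb2, and the other 3 had a share of 60.7% (49.7% to 70.9%). These 3 were the 2 Pvalb nuclei without Adarb2 and an Sst nucleus, so their share repeats UMIs already given above.

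Dentate granule-like nuclei had Gad1 without its usual partners. In 416 nuclei with a median of 11250.5 UMIs, Gad1 was at 54.8 CPM (48.8 to 61.4, 301 UMIs), Gad2 at 2.55 (14 UMIs) and Slc32a1 at 0.182 (1 UMI). The Gad1 level was 10.3-fold below that of inhibitory-like nuclei (8.73 to 12.1) and 21.5-fold above that of CA1-like nuclei (11.2 to 47.4), the pyramidal neurons of the same section. Gad2 was 267-fold lower in granule-like than in inhibitory-like nuclei (157 to 493). The Gad1 share of the Gad1 plus Gad2 UMIs was 95.6% (92.7% to 97.5%), and it was 95.8% and 95.7% in the 2 clusters that hold most of these nuclei.

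The Gad1 UMIs were spread thinly over the granule-like nuclei. A Gad1 UMI was present in 189 of 416 nuclei, or 45.4% (40.6% to 50.4%), of which 119 held 1 UMI, 44 held 2 and 26 held 3 or more, up to 5. The nuclei with the most UMIs, 21 in number, held 26.2% of the Gad1 UMIs. In CA1-like nuclei, which should lack the gene and were deeper at a median of 17898 UMIs, the share with a Gad1 UMI was 2.99%. Only 8 of the 189 granule-like nuclei with a Gad1 UMI also had a Gad2 UMI, or 4.23%, against 33 of 34 inhibitory-like nuclei.

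The level in granule-like nuclei varied little with depth. With the nuclei ordered by depth and cut into 3 equal parts, with median depths of 6823, 11251 and 18109.5 UMIs, Gad1 was at 52.8, 54.6 and 55.6 CPM, and the share of nuclei with a UMI rose from 28.1% through 40.3% to 68.1%. When each nucleus was thinned to 1000 UMIs, a Gad1 UMI remained in 21 of 412 granule-like nuclei, or 5.10% (3.18% to 7.69%, 4 shallower nuclei left out). It remained in 0 of 193 CA1-like nuclei, which allows a share of up to 1.55%. The thinned share in inhibitory-like nuclei was 37.1% (13 of 35), and that for Gad2 was 51.4% (18 of 35) against 0.485% of granule-like nuclei.

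**Figure D2:**
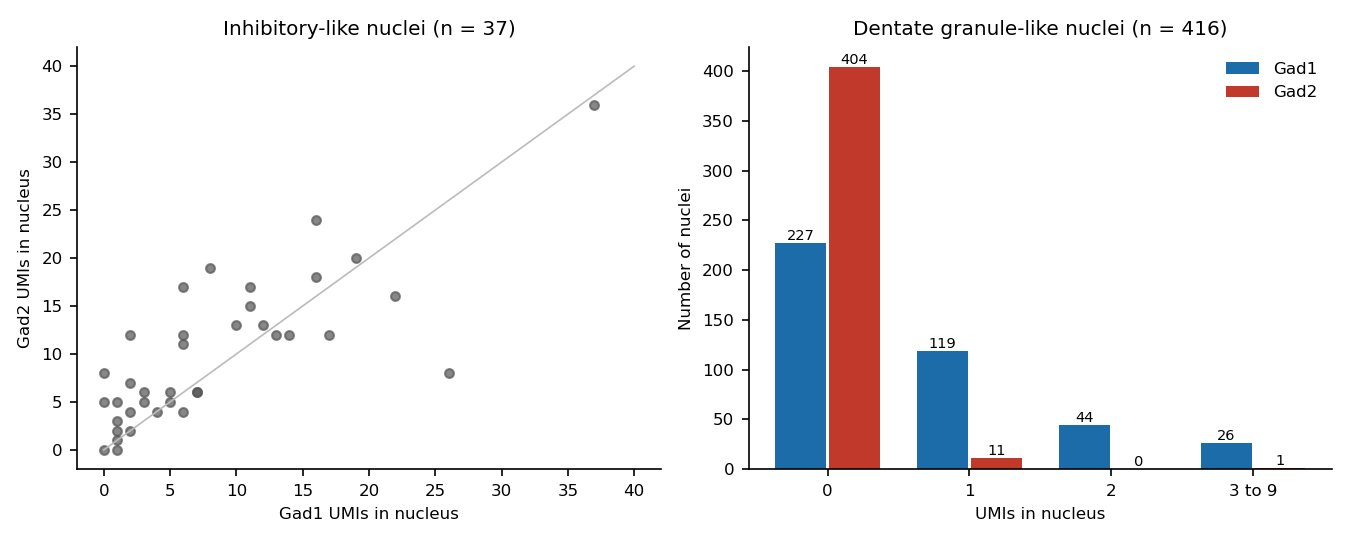
The left panel plots Gad2 against Gad1 UMIs for each of the 37 adult inhibitory-like nuclei, with a grey line of equal counts, and the right panel counts dentate granule-like nuclei by their UMIs of Gad1 (blue) and Gad2 (red). The inhibitory-like counts follow the line of equal counts loosely, while 404 of the 416 granule-like nuclei had no Gad2 UMI and 227 had no Gad1 UMI.

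The other glutamatergic classes were low in Gad1 and had at most 4 Slc32a1 UMIs each, and all but the cortical class were low in Gad2. CA1-like nuclei were at 2.56 CPM for Gad1 and 3.41 for Gad2, CA3-like nuclei at 6.08 and 1.22, and thalamic excitatory-like nuclei at 4.83 and 9.66, with overlapping intervals between neighbours in this order for Gad1. In the thalamic class 1 nucleus held 13 of the 14 Gad2 UMIs, and 5 of the 7 Gad1 UMIs lay in 1 nucleus. The 29 cortical excitatory-like nuclei held 17 Gad2 UMIs, of which 12 lay in 1 nucleus. The 17 were 3.36% of the Gad2 UMIs of the library, in a class with 3.03% of all its UMIs.

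Glial and vascular classes gave a mixed picture for the decarboxylase genes. The 35 oligodendrocyte precursor-like nuclei had Gad1 at 68.4 CPM (39.9 to 110, 17 UMIs) and Gad2 at 24.2 (8.86 to 52.6, 6 UMIs), and Gad1 was 5.07-fold above the level in oligodendrocyte-like nuclei (2.24 to 12.0). A Gad1 UMI was found in 12 of 35 precursor-like nuclei, or 34.3% (19.1% to 52.2%), and 10 of these 12 had no Gad2 UMI. The Gad1 share was 73.9% (51.6% to 89.8%), which lies between those of the inhibitory-like and the granule-like class. Their median depth was 5640 UMIs against 2946 in oligodendrocyte-like nuclei, of which 2.10% had a Gad1 UMI. Thinned to 1000 UMIs, a Gad1 UMI remained in 3 of 34 precursor-like nuclei, or 8.82% (1.86% to 23.7%). It remained in 1 of 228 oligodendrocyte-like nuclei. The interval of the precursor-like Gad1 level overlaps that of astrocyte-like nuclei (30.9 to 61.1).

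Astrocyte-like nuclei held Gad1 at 44.2 CPM (30.9 to 61.1) and Gad2 at 46.6 (33.0 to 64.0), but in few nuclei. A UMI of either gene was found in 28 of 166 nuclei, and the top 8 nuclei held 66.7% of the Gad1 UMIs and 63.2% of the Gad2 UMIs. Their Gad1 share of 48.6% was close to that of inhibitory-like nuclei. The 53 astrocyte-like droplets with under 1.5% Malat1 UMIs, a nuclear transcript used here as a sign of intact nuclei, had Gad1 at 108 and Gad2 at 137 CPM, against 35.1 and 33.7 in the other 113. The part of such droplets in these values was not tested. Microglia-like nuclei held 8 Gad1 UMIs in 3 of 44 nuclei and no Gad2 UMI, which allows up to 17.0 CPM.

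Slc6a11 was highest in another class than the other members. It was at 422 CPM in astrocyte-like nuclei (379 to 469, 344 UMIs), which held 62.7% of its UMIs, and 18.9-fold lower in inhibitory-like nuclei (10.7 to 37.0). The next named class was oligodendrocyte precursor-like at 44.3 CPM (22.1 to 79.2), followed by endothelial-like at 37.5 (16.2 to 74.0), and these neighbours have overlapping intervals. The unassigned nuclei held 58 Slc6a11 UMIs, or 10.6% of those of the gene, with 3.53% of the UMIs of the library. A Slc6a11 UMI was present in 87 of 166 astrocyte-like nuclei, or 52.4%, against 7.69% of granule-like nuclei at a higher depth. Per kb of span the astrocyte-like level was 3.56 CPM, against 0.902 for Gad1 and 0.651 for Gad2.

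The astrocyte-like nuclei were not alike in Slc6a11. Clusters 5 and 16, both named astrocyte from the markers, were separated without the members. The 21 nuclei of cluster 16 all had a Slc6a11 UMI and were at 1740 CPM (1501 to 2005, 190 UMIs), 7.39-fold above the 89 nuclei of cluster 5 at 235 (5.92 to 9.26). Their counts ran from 1 to 18 per nucleus with a median of 9, and those of cluster 5 from 0 to 6 with a median of 1, although cluster 5 was deeper (medians of 5777 and 4401 UMIs). The astrocyte genes compared, Gja1, Aqp4, Slc1a3 and Glul, were not raised with it, and the other markers of the astrocyte list were not compared. Gja1 was at 1103 CPM (1020 to 1190) in cluster 5 and 916 (745 to 1114) in cluster 16, and the others looked at were lower in cluster 16, with Aqp4 at 494 and 293, Slc1a3 at 2850 and 1373 and Glul at 859 and 449 CPM, each with intervals that lie apart.

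Cluster 16 was led by B230323A14Rik, C030005K06Rik and the angiotensinogen gene Agt, among others. Etnppl and Atp13a4, leading genes of the whole astrocyte-like class, were also among the leading genes of this cluster. Its nuclei had no UMI of Lhx2, a transcription factor gene of the telencephalon, which allows up to 27.5 CPM, whereas it was at 73.4 in cluster 5. Gad1, Gad2 and Slc32a1 also had no UMI in cluster 16, and Gad1 and Gad2 were at 41.7 and 40.05 CPM in cluster 5. These genes, and the comparison of the clusters, were chosen after the values were seen. A further 48 astrocyte-like nuclei lay in cluster 6, at a median of 1108.5 UMIs, with Slc6a11 at 130 CPM (67.02 to 227). Malat1 was at 3999 CPM in them against 49233 in cluster 5.

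**Figure D3:**
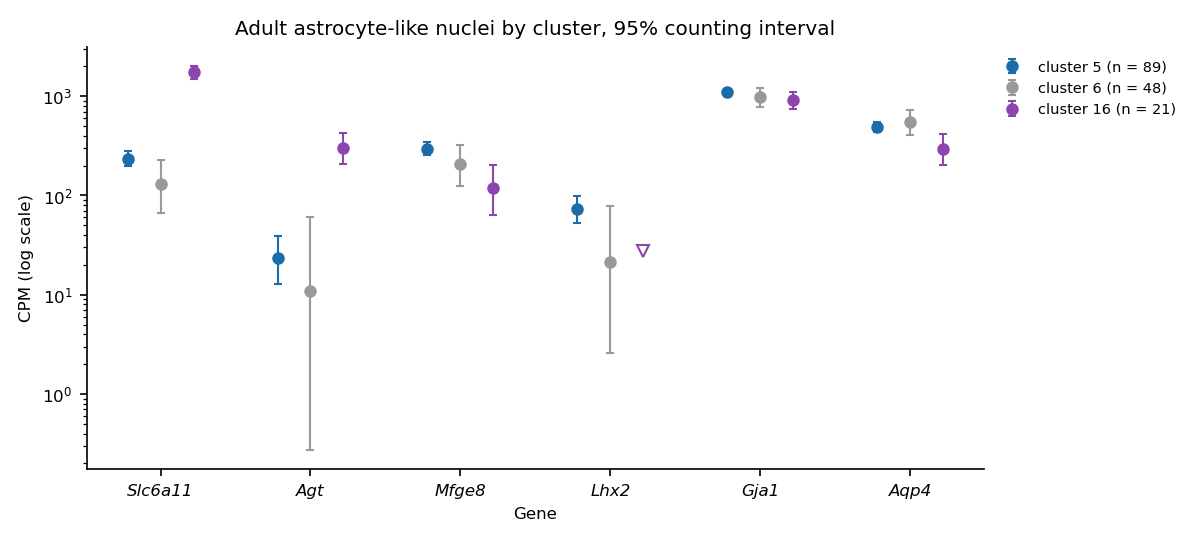
Levels of Slc6a11, the regional genes Agt, Mfge8 and Lhx2, and the astrocyte markers Gja1 and Aqp4 in the adult astrocyte-like nuclei of clusters 5, 6 and 16 (CPM, log axis). Bars are 95% counting intervals and the open triangle is the limit of 3 counts where no UMI was found. Slc6a11 stood at 1740 in cluster 16 and at 235 in cluster 5, whereas Aqp4 was at 293 and 494 and the Gja1 intervals overlapped.

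Among the named E14 classes, Gad1, Gad2 and Slc32a1 were highest in Dlx GABAergic-like nuclei. Some unnamed E14 clusters were higher than this class. Gad2 was at 844 CPM in cluster 13 (798 to 891) and 780 in cluster 17, and Slc32a1 at 65.2, 63.8 and 52.9 in clusters 1, 20 and 0. Of these, only the interval of cluster 13 lies apart from that of the class. The Dlx class passed the naming rule narrowly, with 50.7% of its nuclei in 2 clusters. In its 982 nuclei Gad1 was at 389 CPM (373 to 405, 2180 UMIs), Gad2 at 766 (743 to 789, 4294 UMIs) and Slc32a1 at 50.8 (45.1 to 57.1, 285 UMIs). A Gad1 UMI was found in 70.7% of these nuclei, a Gad2 UMI in 85.6% and a Slc32a1 UMI in 22.6%, at a median depth of 4472.5 UMIs. Counts per nucleus ran from 0 to 29 with a median of 1 for Gad1, and from 0 to 41 with a median of 3 for Gad2. Per kb of span, Gad2 was at 10.7 CPM, Slc32a1 at 10.2 and Gad1 at 7.94, and per kb of exon they were at 130, 18.2 and 50.9, so the places of Gad1 and Slc32a1 depended on the length used.

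The 68 Gata/Tal GABAergic-like nuclei had the same pattern at a lower level. Gad1 was at 234 CPM (202 to 269) and Gad2 at 444 (400 to 492), which the Dlx class exceeded 1.66-fold (1.44 to 1.94) and 1.72-fold (1.55 to 1.92). Slc32a1 was at 42.6 (29.7 to 59.2), and the ratio to the Dlx class of 1.19 had an interval from 0.839 to 1.75. All 68 nuclei had a UMI of Gad1 or Gad2, at a median depth of 7783.5 UMIs. The 88 ventral progenitor-like nuclei, named from Olig2, Nkx2-1 and related genes, were intermediate, with Gad1 at 166 and Gad2 at 395 CPM. These levels were 4.11-fold and 3.84-fold above those of radial glia-like nuclei, whose Gad1 level was the lowest of the named E14 classes. Non-neuronal classes given below, such as microglia or macrophage-like nuclei, lay above radial glia-like nuclei for both genes. These folds therefore do not measure an excess over the non-neuronal level. The median depth of the ventral progenitor-like nuclei was 13858.5 UMIs. Their top 4 nuclei for each gene held 40.5% of the Gad1 and 25.8% of the Gad2 UMIs.

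**Figure D4:**
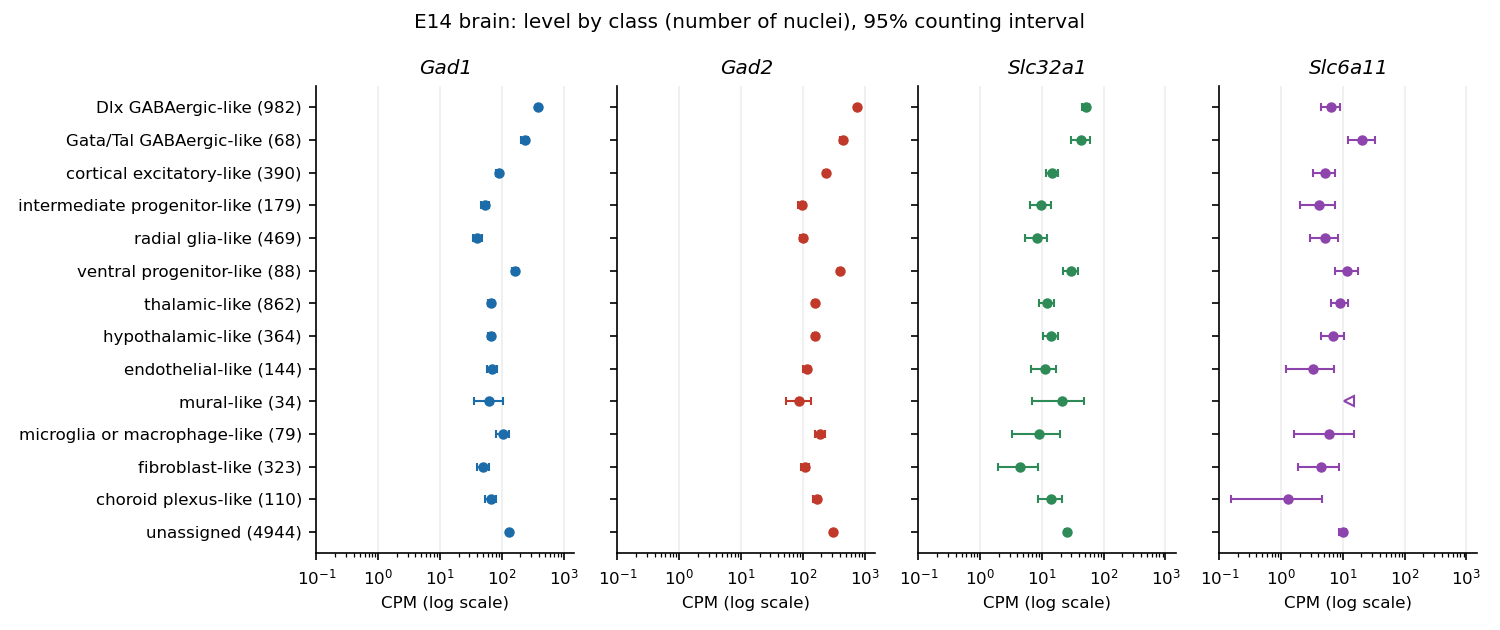
Each panel shows 1 member, with its level in CPM on a log axis for each class of the E14 library (number of nuclei in brackets), with bars of 95% counting intervals and an open triangle at the limit of 3 counts where no UMI was found. Gad1, Gad2 and Slc32a1 were highest in the Dlx and Gata/Tal GABAergic-like classes, but no class was near 0 for Gad1 or Gad2, and Slc6a11 was at most 20.7 in any class.

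The other 10 named E14 classes all carried Gad1 and Gad2 UMIs. Gad2 ran from 87.9 CPM in mural-like to 235 in cortical excitatory-like nuclei, and Gad1 from 40.4 in radial glia-like to 103 in microglia or macrophage-like nuclei. Classes that should lack the genes lay inside this range, with Gad2 at 192 in microglia or macrophage-like, 167 in choroid plexus-like, 116 in endothelial-like and 109 in fibroblast-like nuclei. The Gad1 share of Gad UMIs in these non-neuronal classes ran from 28.4% to 41.7%, around the 30.9% of the whole library. The interval of the cortical excitatory-like Gad2 level (222 to 248) overlapped that of microglia or macrophage-like nuclei (160 to 228), and its Gad1 level of 89.8 lay below their 103. Values in non-GABAergic classes at or below those of the non-neuronal classes were therefore not read as expression. The source of these UMIs was not tested. The methods describe removal of background RNA for the embryo, but the E14 count table names another Cell Ranger version than the methods do, and whether its counts had that step could not be settled here. Ttr, a choroid plexus transcript at 31319 CPM there, likewise had a UMI in 76.9% to 91.2% of the nuclei of every other named class.

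Thinned to 1000 UMIs, a UMI of Gad1 or Gad2 was present in 65.8% of Dlx GABAergic-like nuclei (62.7% to 68.8%, 633 of 962) and 60.3% of Gata/Tal GABAergic-like nuclei (47.7% to 72.0%). The share was 14.4% in cortical excitatory-like, 17.4% in endothelial-like, 15.4% in microglia or macrophage-like, 7.58% in radial glia-like and 16.9% in thalamic-like nuclei. Non-neuronal classes themselves ran from 5.42% in fibroblast-like (3.13% to 8.66%) to 20.4% in choroid plexus-like nuclei (13.2% to 29.2%), which differ beyond counting error at a matched depth, and the source of this difference was not tested. The cortical excitatory-like share lies inside that range. In ventral progenitor-like nuclei the share was 25.3% (16.6% to 35.7%), an interval that overlaps that of choroid plexus-like nuclei. Without thinning the shares were 91.8%, 68 of 68 nuclei, 41.0%, 38.2%, 39.2% and 23.7% in the first 6 of these classes, in the same order.

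In 3 of the non-GABAergic E14 classes the level was higher in deeper nuclei. In cortical excitatory-like nuclei Gad1 plus Gad2 was at 98.4, 206 and 384 CPM in the shallowest, middle and deepest of 3 equal parts, and the top 20 nuclei of 390 held 52.8% of the Gad2 UMIs, with up to 93 in 1 nucleus. In radial glia-like nuclei these were at 19.6, 84.2 and 184, and in microglia or macrophage-like nuclei at 78.2, 152 and 346. Thalamic-like nuclei varied less, at 209, 229 and 232. In Dlx GABAergic-like nuclei the order was reversed, at 1580, 1243 and 1027. Removing the 653 nuclei with the highest doublet scores took Gad1 and Gad2 in cortical excitatory-like nuclei from 89.8 and 235 to 75.4 and 178 CPM. Their part in the remaining level was not tested.

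Within the Dlx class, nuclei with interneuron genes had more Gad1. The 331 nuclei in which markers of medial ganglionic eminence interneurons, such as Lhx6 and Maf, prevailed had Gad1 at 538 CPM (504 to 574) and Gad2 at 934 (888 to 981). The 285 in which striatal markers, such as Foxp1, Ebf1 and Isl1, prevailed had 329 (304 to 356) and 757 (718 to 797). The ratio was 1.63 for Gad1 (1.47 to 1.81) and 1.23 for Gad2 (1.15 to 1.33), and the Gad1 share was 36.5% (34.7% to 38.5%) against 30.3% (28.3% to 32.4%). Slc32a1, at 54.2 and 48.8 CPM, gave a ratio of 1.11 with an interval from 0.823 to 1.496. The interneuron group was shallower, at a median of 3695 UMIs against 5422, and levels in the class were higher in shallower nuclei. Within the shallowest, middle and deepest of 3 equal parts of the class by depth, chosen after the values were seen, the Gad1 ratio was 1.68 (1.27 to 2.24), 2.01 (1.64 to 2.48) and 1.31 (1.13 to 1.503). The Gad2 ratio was 0.960 (0.798 to 1.16), 1.25 (1.09 to 1.44) and 1.18 (1.07 to 1.30), so the Gad2 difference was not seen in the shallowest part.

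The 122 Dlx GABAergic-like nuclei with cell cycle genes, such as Mki67 and Top2a, had Gad1 at 325 CPM and a Gad1 share of 29.4% (26.8% to 32.1%). The 648 without a cell cycle UMI had 394 and 33.9% (32.3% to 35.4%). Gad2 was at 780 and 768, a ratio of 1.02 (0.937 to 1.10). Of the cycling nuclei, 26 also belonged to the interneuron group, and the cycling nuclei were deeper, at medians of 6428 against 4034 UMIs.

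Clusters made without the members showed a wider range of the Gad1 share than the classes did. Cluster 21, a Dlx GABAergic-like cluster led by Trpc4 and Prdm12, had 40.02% (36.8% to 43.3%), and cluster 8, led by Lhx6 and Dlx6os1, had 37.98% (36.2% to 39.8%). At the other end, cluster 17, an unnamed cluster of 175 nuclei led by Klhl14 and Npffr1, had 17.7% (15.2% to 20.3%), with Gad2 at 780 and Gad1 at 167 CPM. Cluster 13, unnamed and led by Gm4128 and Sema3e with Isl1 among its leading genes, had 22.1% (20.2% to 24.2%), with Gad2 at 844 and Gad1 at 240. The Gad2 levels of clusters 13 and 17 thus approached the 928 of cluster 8 while their Gad1 levels were less than its 568. Slc32a1 was at 48.0, 42.9 and 53.2 CPM in clusters 13, 17 and 8.

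Much of the E14 signal lay in nuclei without a class name. The 4944 unassigned nuclei, of which 538 were Cajal-Retzius and 64 erythroid by their markers, held 43.7% of the Gad1 UMIs and 46.4% of the Gad2 UMIs. Cluster 0, the largest with 1053 nuclei and led by Ecel1 with Prox1 and Pbx3 among its leading genes, was at 230 CPM for Gad1 and 463 for Gad2. Cluster 12, led by AI606473 and Lhx8, was at 206 and 547, and cluster 20, led by the enkephalin gene Penk, was at 259 and 603. The cluster named radial glia had Gad2 at 324 CPM, against 103 in the radial glia-like nuclei placed one by one from their markers. Leading genes of this cluster included Pdzph1, shared with the radial glia-like class, and Lipg and Tll2, shared with the ventral progenitor-like class. The cluster and the class are thus different groupings of nuclei.

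**Figure D5:**
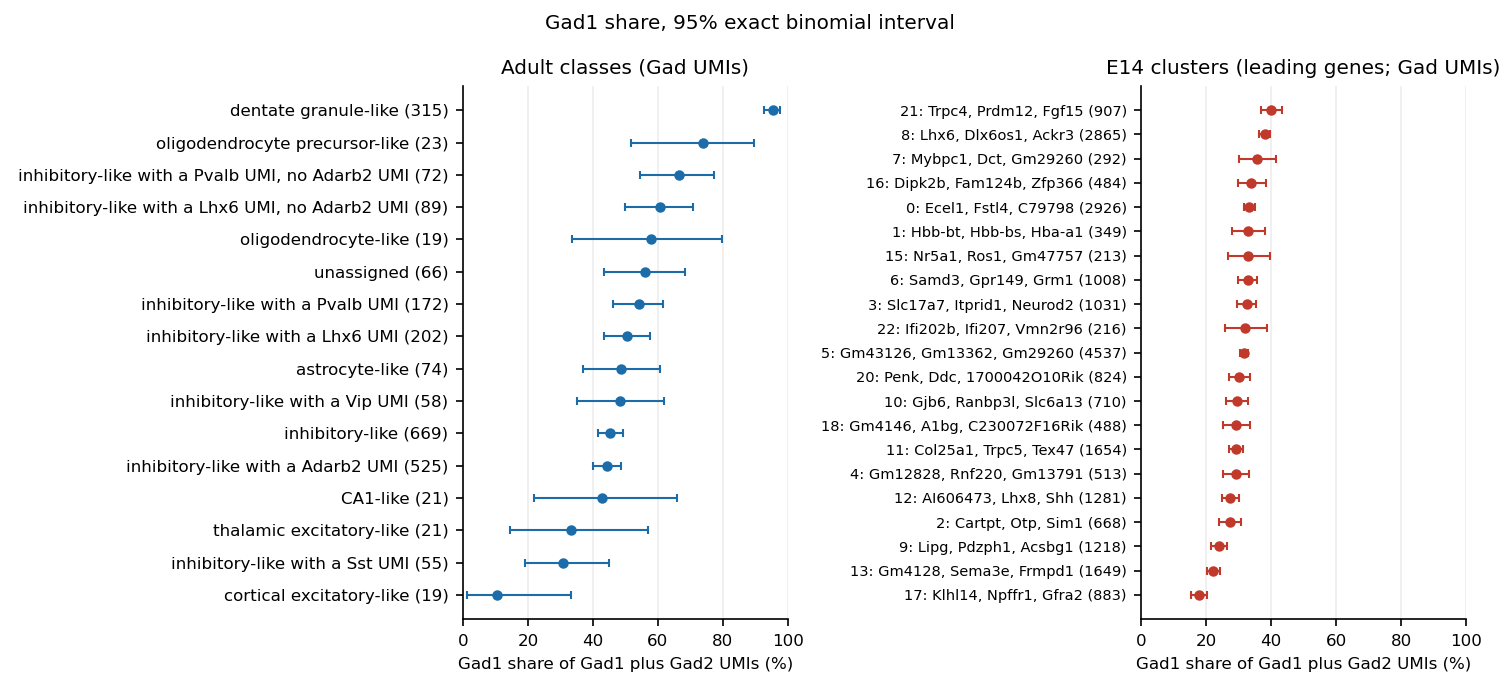
Gad1 UMIs as a percentage of Gad1 plus Gad2 UMIs, for adult classes and interneuron subgroups with at least 15 such UMIs (left) and for E14 clusters with at least 200 (right), with the number of UMIs in brackets and exact 95% binomial intervals. Dentate granule-like nuclei stand alone at 95.6% on the left, and E14 clusters run from 17.7% in cluster 17 to 40.02% in cluster 21.

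Slc6a11 was low throughout the E14 brain. Of the named classes it was highest in Gata/Tal GABAergic-like nuclei, at 20.7 CPM (12.0 to 33.1, 17 UMIs), 3.22-fold above the Dlx class (1.70 to 5.88), followed by ventral progenitor-like at 11.8 (7.41 to 17.9), whose interval overlaps. The unnamed cluster 17 was at 24.7 (15.6 to 37.0, 23 UMIs), which overlaps the Gata/Tal interval. Radial glia-like nuclei, the precursors of astrocytes, were at 5.09 (2.91 to 8.27). The adult astrocyte-like level was 422, but the libraries differ in age, tissue and preparation at once, and these values are only set side by side. The Gad1 share in GABAergic neurons likewise stood at 45.3% in the adult and 33.7% at E14.

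The loci of Gad1 and Slc32a1 hold RNAs on the minus strand, and these were counted as genes of their own. Gm14204 starts 44 bases from the Slc32a1 start and runs away from it (chr2:158595472-158610723). It was at 57.6 CPM in adult inhibitory-like nuclei (31 of the 38 UMIs of the library) and at 0.182 in granule-like nuclei. In E14 Dlx GABAergic-like nuclei it was at 156 CPM, with a UMI in 50.9% of nuclei, against 38.1 in cortical excitatory-like and 14.01 in radial glia-like nuclei. Gm14205, antisense within Slc32a1, had 1 UMI in the adult and 24 at E14.

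Gad1os overlaps 10286 bases at the 5′ end of the Gad1 span on the opposite strand (chr2:70489940-70563357). It was at 26.0 CPM in adult inhibitory-like nuclei (14 UMIs), 6.74 in granule-like nuclei (37 UMIs) and 0 in CA1-like nuclei. At E14 it was at 35.0 in Dlx GABAergic-like and 9.22 in cortical excitatory-like nuclei. The strand setting of the counting was not given in the sources used here, so reads from overlapping genes of opposite strand may not be fully told apart. The coding neighbours Gorasp2 and Actr5 were at 24.2 and 13.0 in adult inhibitory-like and 38.3 and 9.11 in granule-like nuclei.

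Genes whose level over the classes was most like that of a member were sought by Pearson's r of log2(CPM + 1), which is a description over 12 adult and 13 E14 classes that share a library. In the adult, Frem1 (r = 0.890), Rab3b, Yjefn3, Grip2 and the neuropeptide gene Npy were most like Gad2, and Yjefn3 and Lgi2 were most like Slc32a1, with Gad2 next at 0.874. For Gad1 the DNA polymerase gene Pola1 was first at 0.874, and Gad2 stood at 0.587. Slc6a11 was most like Igdcc4 (0.933), Sh3pxd2b and the amino acid transporter gene Slc7a10. At E14 the synaptic adhesion gene Nrxn3 led for both Gad1 (0.962) and Gad2 (0.984), with Gm14204 second for both, and Arhgap40, a neighbour of Slc32a1 on chromosome 2, led for Slc32a1 (0.970).

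The other genes of GABA metabolism were read from a list of 16 that includes the members, of which 2 are not reported here. In the adult, inhibitory-like nuclei were set against the pooled excitatory-like classes, and a gene was called at a fold of 2 or more with at least 20 UMIs in both together. All 4 members and 4 of the 7 others measured were called higher, where 13.8% of 14796 genes were, and none was called lower, where 14.4% were. Abat, the transaminase that breaks GABA down, was 7.70-fold higher (6.14 to 9.60), Glul, which makes glutamine, 2.83-fold (1.84 to 4.21), and Pdxk, which makes the pyridoxal phosphate cofactor, 2.01-fold (1.36 to 2.88). Aldh5a1, the next enzyme of breakdown, was called at a fitted ratio with 0.5 UMI added, and its plain ratio was 1.96. The neuronal glutamate transporter gene Slc1a1 was at 0.591 of the excitatory level (0.437 to 0.782). Among the members the folds were 20.4 for Gad1, 138 for Gad2, 95.2 for Slc32a1 and 2.43 for Slc6a11. The median log2 ratio was 1.00 over the 7 other genes and 0.09 over all genes.

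Astrocyte-like nuclei were next set against the same inhibitory-like nuclei, so the comparisons share that class. Slc6a11 and 3 of the 8 others measured were called higher, where 21.9% of 9629 genes were, namely Glul at 16.6-fold (11.4 to 25.2), Maob at 61.4-fold (10.7 to 2449, 1 UMI in the inhibitory-like class) and the glutamine transporter gene Slc38a3, with 74 UMIs against 0. Gad1, Gad2, Slc32a1 and Slc1a1 were called lower, where 16.1% were. Abat differed by less than the counting error, at 190 and 205 CPM, a ratio of 0.930 (0.724 to 1.20).

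At E14, Dlx GABAergic-like against cortical excitatory-like nuclei gave Gad1 at 4.33-fold (3.91 to 4.80), Gad2 at 3.26-fold (3.06 to 3.48) and Slc32a1 at 3.45-fold (2.67 to 4.52). Abat, at 3.10-fold (2.65 to 3.64), was the only one of the 6 others called higher, where 3.15% of 14696 genes were, and none was called lower, where 4.21% were. Slc6a11, at a ratio of 1.26 (0.739 to 2.17), was not called. Slc1a1 was at 0.523 of the excitatory level (0.412 to 0.662). The Gad2 level that they divide by has an interval that overlaps that of microglia or macrophage-like nuclei, as given above. Slc6a12 and Slc6a13, the genes of further GABA transporters, had at most 7 UMIs in any class compared here. Slc6a13 was, however, among the leading genes of the E14 fibroblast-like class, which was not part of these comparisons.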

How the data were processed

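Slide-tags snRNA-seq was measured in 1 adult and 1 E14 library. The authors deposited whole-number UMI counts per gene and nucleus, aligned to mm10 with intronic reads included. The file headers name Cell Ranger 6.1.2 for the adult and 7.0.1 for E14, and the strand setting was not given in the sources used here. The methods name version 6.1.2 and describe removal of background RNA for the embryo. Whether the deposited E14 counts had that step could not be settled from the header, and they were treated as uncorrected.

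The filter asked for 500 UMIs or more per nucleus with a mitochondrial share below 5%, which left 1609 of 1661 adult and 9036 of 9037 E14 nuclei. Classes came from 13 adult and 15 E14 marker lists, without the members. A nucleus needed 3 marker UMIs over 2 genes and a likelihood margin of 3 over the next list, with up to 10 UMIs of a marker counted. A class was named with at least 20 nuclei and at least 50% of them in 2 clusters. Clusters (Seurat 5.3.0, R 4.3.3, 2000 variable genes, 30 components, resolution 0.8) left the members out. The members, the marker and pathway lists were chosen with earlier results of these data known. The marker scoring, the cluster rule, the subgroup thresholds and the neighbouring genes were settled after member values had been seen. Scrublet (scanpy 1.11.5) marked 7 adult and 0 E14 nuclei by its own threshold and was judged not to have worked, so the 22 and 653 highest scores were removed only as an alternative.

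Levels were summed CPM with exact Poisson intervals, and shares had Clopper-Pearson intervals, at 95% (scipy 1.17.1, Python 3.11.15). A count of 0 was given an upper limit of 3 counts. Shares were also taken after thinning each nucleus to 1000 UMIs. The named genes were the members, the markers, 16 pathway genes and the 5 genes most like each member among those with at least 100 UMIs, and neighbours and leading genes of clusters were added after their values were seen. Of the pathway genes 2 are not reported here. With 1 library per tissue no test was run. The scripts were tested on simulated data. Alternatives were the filters, removal of high doublet scores and of droplets low in Malat1, classes by clusters, the marker minimum, the marker rule, the thinning depth and the fold. Spatial positions were not analysed here.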

Additional observations from a re-analysis of the deposited data

How the results depend on the processing

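Of 441 values recomputed under alternatives, 371 stayed inside the interval or count range of the reported value and 69 did not. In 1 more the direction changed, as the Gad2 ratio of interneuron to striatal nuclei was 0.960 in the shallowest part by depth, an alternative chosen after seeing the data. Limiting mitochondrial UMIs to 1% took Slc6a11 in adult astrocyte-like nuclei from 422 to 536 CPM. Thinning to 2000 UMIs took the share with a Gad1 or Gad2 UMI from 5.58% to 11.0% of granule-like and from 65.8% to 82.6% of Dlx GABAergic-like nuclei, since a deeper draw holds more UMIs. With Dlx nuclei taken by clusters, Gad1 was at 583 and Gad2 at 933 CPM, the Gad1 share was 38.5% and the thinned share 75.4%. A higher marker minimum gave Gad1 at 411. The first marker rule tried, kept as an alternative after seeing the data, placed only 43 nuclei as granule-like. It left their Gad1 level at 52.6 CPM (28.0 to 90.0) and gave a thinned share of 0 of 35. In Dlx nuclei it gave 489 and 890 CPM, 35.5% and 69.4%. At a fold of 3, 1 pathway gene other than the members was called higher in adult inhibitory-like nuclei. At a fold of 1.5, 1 was called lower in adult inhibitory-like nuclei, 2 lower in astrocyte-like nuclei, and 2 higher and 1 lower at E14. Beyond thinning and the fold, the cause was not tested. No paired analysis was possible because each tissue had 1 library, and no library could be left out.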
